A study of Mus musculus with 4 samples.

Results

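The genes of voltage-gated and potassium channel subunits were examined in the cerebral cortex of mouse embryos with and without a knockout of Cd93. The set holds every protein-coding gene listed in both deposited tables whose symbol names a potassium channel subunit (Kcn), a voltage-gated sodium channel subunit (Scn), a voltage-gated calcium channel subunit (Cacna, Cacnb, Cacng) or an HCN channel (Hcn). There were 121 such genes among the 20385 genes in both tables: 82 of potassium channels, 11 of sodium channels, 24 of calcium channels and 4 of HCN channels. The Cd93 knockout (KO) group was made of the libraries KO 5 and KO 6, and the wild-type (WT) group of WT 1 and WT 4. All embryos were C57BL/6 mice at embryonic day 16, and the tissue was dissected cortex, which the labels also call brain. The labels name no Cre line and do not say which part of Cd93 was removed. The design text speaks of triplicates, and any further library is not analysed here. Whether the libraries of a genotype stem from separate embryos is not stated, and p-values therefore reflect only how far these libraries spread, which may be technical.

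Voltage-gated sodium and calcium channels open when a membrane depolarises, and potassium channels carry the current that brings it back and sets its resting level. Each is built around a pore-forming subunit, and auxiliary subunits bring the pore to the surface and shape how it opens and closes. In the embryonic cortex such channels are known in newborn neurons, which become excitable before synapses mature, and also in progenitors, glia and the cells of blood vessels. In whole tissue, fewer cells of a type and less RNA in each cell cannot be told apart.

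The 4 libraries held 16318317 to 17586157 counts, and 1 count was worth 0.0569 to 0.0613 CPM (counts scaled to the size of the library). Cd93 had 111 and 99 counts in KO 5 and KO 6, against 680 and 409 counts in WT 1 and WT 4, so the libraries follow their labels. WT 1 stood apart in genes of other tissue: 6 meningeal fibroblast genes summed to 25.9 and 39.4 CPM in KO 5 and KO 6, against 438 and 66.5 CPM in WT 1 and WT 4. The 11 genes of the ganglionic eminence and striatum summed to 258 and 389 CPM in KO 5 and KO 6, against 725 and 379 CPM in WT 1 and WT 4. In both lists every gene had a fitted value below 0 in the KO, and none was at 0 counts in any library. Genes of cortical excitatory neurons, which define the labelled tissue, summed to 3540 and 3396 CPM in KO 5 and KO 6, against 2979 and 3511 CPM in WT 1 and WT 4.

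Channel transcripts were a small share of the cortex transcriptome. The 121 genes took 0.413% and 0.424% of the counts in KO 5 and KO 6, against 0.401% and 0.409% in WT 1 and WT 4. Both KO shares were slightly above both WT shares. No channel gene passed the test between KO and WT: of 105 genes with enough counts to be tested, 0 had an adjusted p under 0.05 in the quasi-likelihood test of edgeR, with p adjusted by Benjamini-Hochberg over all genes. The same test called 2 of 16371 genes in the whole table (0.0122%), both lower in the KO and neither a channel gene. Cd93 itself was not among them. Its log2 fold change of -2.32 had an edgeR adjusted p of 0.21, so even a difference of that size did not pass. DESeq2 also called 0 channel genes, where it called 0.0489% of all genes, and limma-voom called 0, where it called 0.0122%. A block for the deposited table gave 0 as well, where 0.177% of all genes were called. The edgeR test also called 0 with no filter on low counts, where 0.00981% of all genes were called, and with a filter of 10 counts in 2 libraries, where 0.0121% were. At an unadjusted edgeR p under 0.05 there was 1 channel gene, Kcnip2, while 1.94% of all genes lay there. The fitted log2 fold changes ran from -0.93 to 0.82, with 57 above 0 and 48 below, and none reached 1 in size, as 2.39% of all genes did. The channel genes' median was 0.04, beside -0.0028 over all genes tested, of which 49.0% lay above 0 and 51.0% below. Among the 73 channel genes with a mean of at least 100 counts 46 lay above 0, where 50.6% of all genes of that depth did.

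**Figure D1:**
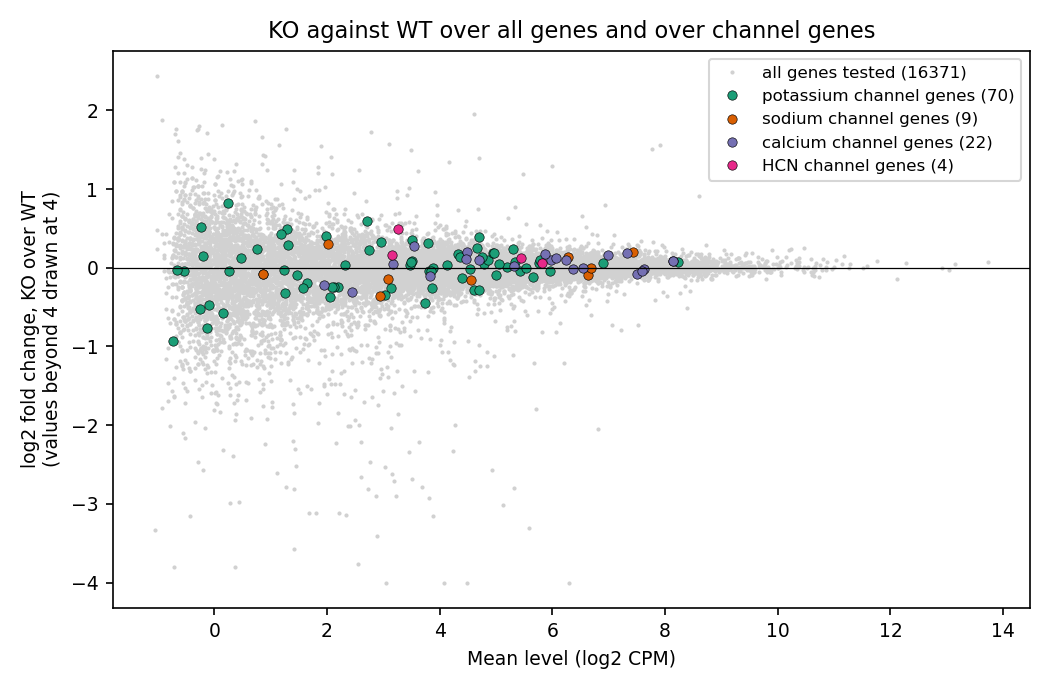
Log2 fold change of KO over WT (vertical axis) against the mean level in log2 CPM (horizontal axis) for the 16371 genes tested, in grey, and for the 105 channel genes tested, coloured by class. The channel genes lie between -0.93 and 0.82, and those of high level lie closest to 0.

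None of the 4 classes held a called gene, and their median differences were small. The median log2 fold change was 0.02 over 70 potassium channel genes (36 above 0, 34 below), -0.07 over 9 sodium channel genes (3 above, 6 below), 0.08 over 22 calcium channel genes (14 above, 8 below) and 0.15 over 4 HCN genes (all above). The 2 deposited tables each hold 1 library of either genotype, here called table A (KO 6, WT 1) and table B (KO 5, WT 4), and the class medians were recomputed within each. In tables A and B the median log2 ratio was 0.04 and 0.02 for potassium, 0.01 and -0.21 for sodium, 0.13 and 0.0034 for calcium, and 0.0085 and 0.17 for HCN channel genes. The sodium median thus took another sign in each table. The fitted sodium median was 0.10 without KO 5. Of the 105 genes, 33 lay above 0 in both tables (22.3% of all genes did), 17 below 0 in both (22.9% of all genes did), and 55 in opposite directions.

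Summed over a class, per kilobase of exon, calcium channel subunits held the most transcript when the Cacng genes were counted in, and HCN channels the least. These levels are TMM-scaled CPM per kilobase of the gene's summed exon length, so that genes can be set side by side. The 24 calcium channel genes summed to 362 and 337 CPM per kb in KO 5 and KO 6, against 325 and 361 CPM per kb in WT 1 and WT 4. Of these sums the 7 Cacng genes held 172 and 142 in KO 5 and KO 6, against 145 and 172 in WT 1 and WT 4. Without the Cacng genes the calcium sum was below the potassium sum in every library. The 82 potassium channel genes summed to 219.9 and 217 in KO 5 and KO 6, against 212 and 213 in WT 1 and WT 4. Both KO potassium sums were slightly above both WT sums. The 11 sodium channel genes summed to 55.7 and 66.8 in KO 5 and KO 6, against 58.5 and 55.2 in WT 1 and WT 4. The 4 HCN genes summed to 26.4 and 23.3 in KO 5 and KO 6, against 23.0 and 23.3 in WT 1 and WT 4. Sodium, calcium and HCN sums overlapped between the genotypes. The share of the whole held by the 5 genes of highest level was 39.7% to 42.4% over the 4 libraries.

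**Figure D2:**
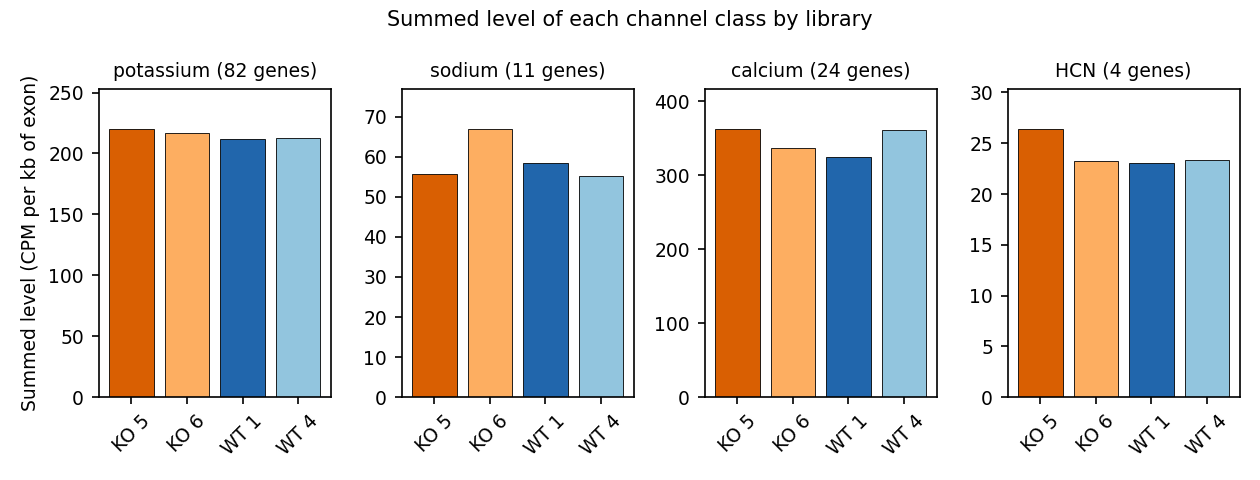
Summed level of each channel class (CPM per kb of exon, vertical axis from 0) in each library, KO 5 and KO 6 left of WT 1 and WT 4, with the number of genes in each class in its title. Bars of KO and WT overlap in height in every class but potassium, where both KO bars stand slightly higher.

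The sequence just before the start of these genes was looked at beside their level, since promoters rich in CG pairs are typical of genes used in many cells and promoters poor in them of genes used in few. The RefSeq table for GRCm38.p6 gave 122 windows of 250 bases before a start for 86 of the 121 genes. The 4 shown are the windows of the genes of highest and of lowest level among those with a single window that holds no exon bases. They are written in the direction of transcription, with each CG pair in capitals. The first 2 belong to genes of high level and the last 2 to genes with at most 8 counts in any library.
Cacng7: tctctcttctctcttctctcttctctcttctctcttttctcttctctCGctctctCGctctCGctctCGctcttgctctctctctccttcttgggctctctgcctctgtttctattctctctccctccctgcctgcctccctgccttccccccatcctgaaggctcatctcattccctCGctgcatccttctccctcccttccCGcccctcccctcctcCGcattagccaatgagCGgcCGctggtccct
Cacna2d1: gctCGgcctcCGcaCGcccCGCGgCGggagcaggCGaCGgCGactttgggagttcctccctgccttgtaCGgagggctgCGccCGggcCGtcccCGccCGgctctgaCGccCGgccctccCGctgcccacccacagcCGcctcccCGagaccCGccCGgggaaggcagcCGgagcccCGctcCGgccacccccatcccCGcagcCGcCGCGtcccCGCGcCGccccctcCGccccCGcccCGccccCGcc
Kcnj15: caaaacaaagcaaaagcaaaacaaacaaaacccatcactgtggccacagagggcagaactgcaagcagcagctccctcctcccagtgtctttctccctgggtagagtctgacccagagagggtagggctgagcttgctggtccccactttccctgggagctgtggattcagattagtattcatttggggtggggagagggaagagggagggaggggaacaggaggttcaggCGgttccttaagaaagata
Scn11a: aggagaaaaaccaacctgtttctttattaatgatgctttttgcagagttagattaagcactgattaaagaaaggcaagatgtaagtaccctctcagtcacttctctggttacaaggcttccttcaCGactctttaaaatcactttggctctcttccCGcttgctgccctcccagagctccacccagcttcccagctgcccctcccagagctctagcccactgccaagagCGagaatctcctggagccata
The Cacng7 window is chr7:3332575-3332824 on the plus strand, and that of Cacna2d1 is chr5:15934441-15934690 on the plus strand. The Kcnj15 window is chr16:95257308-95257557 on the plus strand, and that of Scn11a is chr9:119825457-119825706 on the minus strand. They hold 9 CG pairs in Cacng7, 36 in Cacna2d1, 1 in Kcnj15 and 3 in Scn11a. Cacng7 thus combined the highest level of all channel genes by exon length with a window of few CG pairs and long runs of C and T.

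Over the set, level and CG pairs were loosely related. Of the 73 genes with a window that had enough counts to be tested, 39 (53.4%) had at least 15 CG pairs in a window, beside 59.0% of 10695 protein-coding genes of that kind. Of the 13 with too few counts, 3 (23.1%) had, beside 15.7% of 1107 protein-coding genes of that kind. Across the 86 genes the Spearman rho between the CG pairs and the level was 0.31, a description across genes that share libraries. Searched on both strands, TATAAA was in 4 of the 122 windows (3.28%), beside 6.86% of the 15083 windows of protein-coding genes in both tables and 12.4% of all 32851 windows. The letters GGACAGC, found in the element bound by the repressor REST, were in 10 windows (8.20%), beside 6.20% of the protein-coding windows and 5.28% of all windows. The E-box CAGCTG, which reads the same on both strands and can overlap GGACAGC, was in 28 windows (23.0%), beside 12.6% of the protein-coding windows and 13% of all windows. Of the 4 sequences shown, that of Scn11a holds CAGCTG and none holds the other 2 motifs. A match is a description of the letters only.

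Among the sodium channel pore subunits, which carry the rising phase of the action potential, Scn3a, the form known from embryonic brain, had the highest mean level. Scn3a had 1552 and 1677 counts in KO 5 and KO 6, against 1820 and 1747 in WT 1 and WT 4, or 7.70 ± 0.838 CPM per kb in KO and 8.23 ± 0.0128 in WT (SD, n = 2 each). Scn8a and Scn2a, the pore subunits of the axon initial segment in mature and immature neurons, lay close behind, at 5.50 to 7.53 and 5.25 to 7.35 CPM per kb over the 4 libraries. The ranges of these 3 genes overlapped, and within a library Scn3a stood 1.13 to 1.57 times as high as Scn2a. Scn1a, known from inhibitory interneurons, was lower still, with a Scn3a level 3.40 to 4.11 times its own. Scn2a had 1209 and 1519 counts in KO 5 and KO 6, against 1188 and 1384 in WT 1 and WT 4. Its groups overlapped, with a log2 ratio of 0.49 within table A and -0.24 within table B. Scn8a had 1652 and 1789 counts in KO 5 and KO 6, against 2109 and 1475 in WT 1 and WT 4, so that both KO libraries fell between the WT libraries. Scn9a, a pore subunit of peripheral neurons, had 97 and 126 counts in KO 5 and KO 6, against 150 and 146 in WT 1 and WT 4. Both KO values lay below both WT values, with a log2 fold change of -0.36 (95% interval -0.96 to 0.24).

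The beta subunits are single-pass membrane proteins that set sodium channel gating and adhesion, and Scn3b held most of their transcript. Scn3b (chromosome 9, 40269217 to 40291618, plus strand, GRCm38) had 3001 and 3226 counts in KO 5 and KO 6, against 2943 and 2640 in WT 1 and WT 4. Both KO libraries were above both WT libraries, and the level was 33.9 ± 3.56 CPM per kb in KO and 29.4 ± 1.36 in WT (SD, n = 2 each). This gave a log2 fold change of 0.21 (95% interval -0.08 to 0.49), with an edgeR adjusted p of 0.9999. Scn2b had 105 and 159 counts in KO 5 and KO 6, against 154 and 150 in WT 1 and WT 4, and overlapped.

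**Figure D3:**
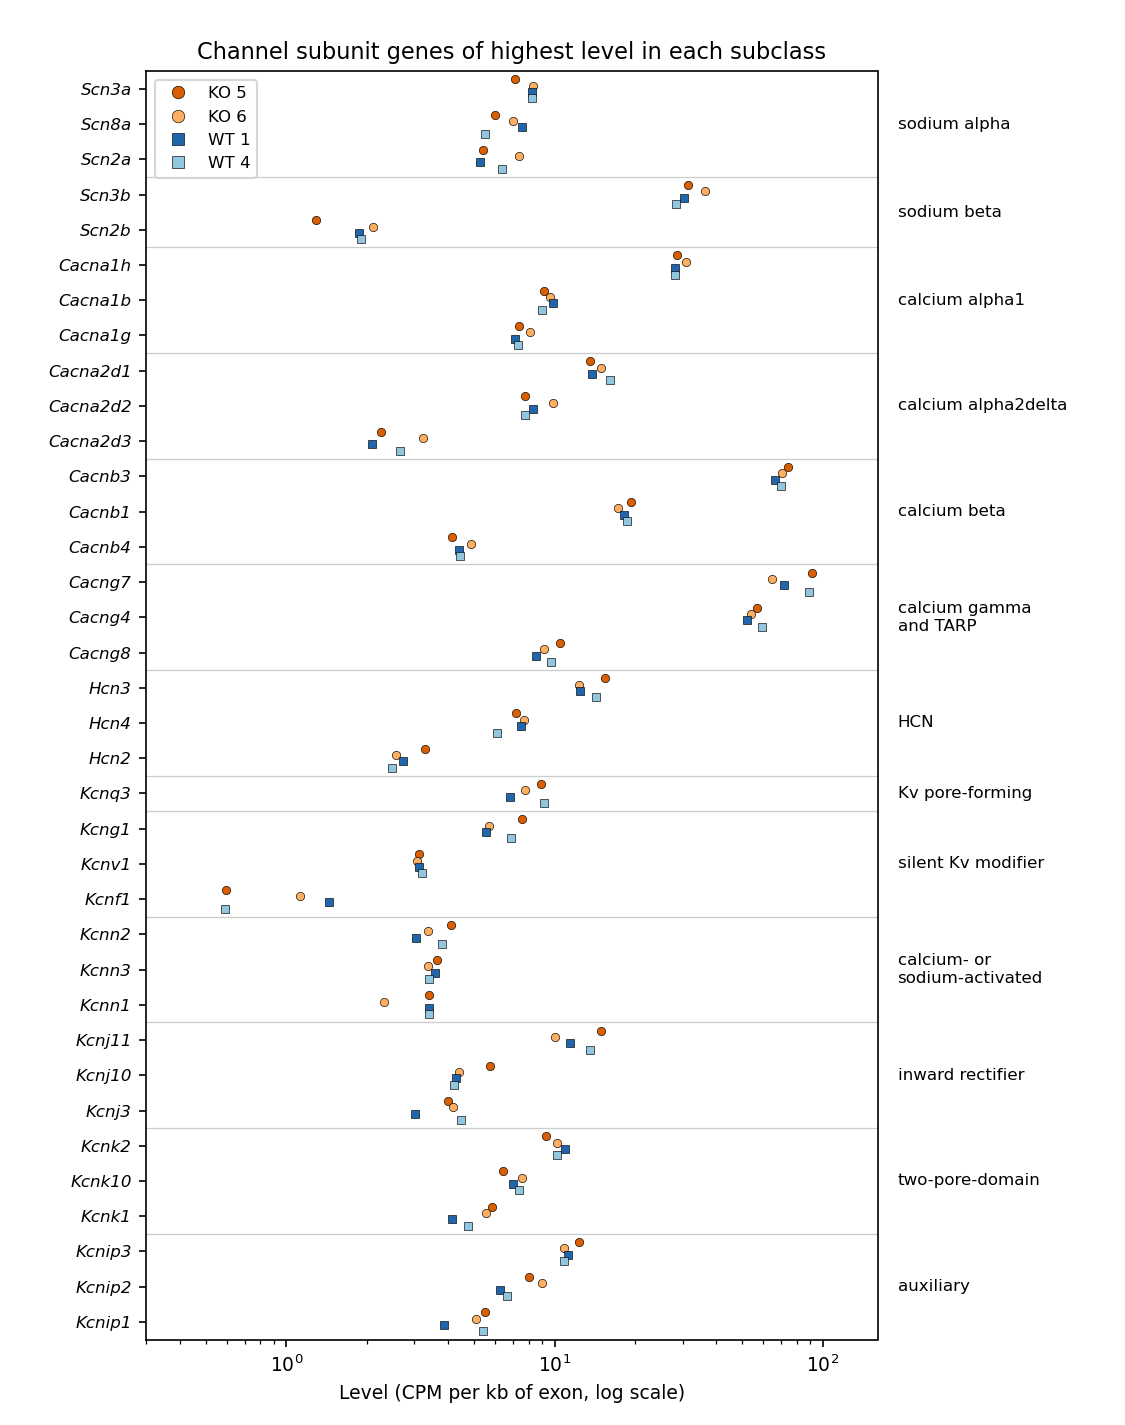
Level of genes of highest mean level, at most 3 in each of 13 subclasses (CPM per kb of exon, log scale, horizontal axis), 1 point per library, circles for KO 5 and KO 6 above squares for WT 1 and WT 4. Cacng7, Cacnb3 and Cacng4 lie highest, and circles and squares of most genes overlap.

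By exon length the 3 channel genes of highest level all belonged to auxiliary calcium channel families. By coding length Scn3b stood above all 3, at 268 CPM per kb of coding sequence, beside 234 for Cacng7, 202 for Cacng4 and 188 for Cacnb3. Cacng7 and Cacng4 encode transmembrane AMPA receptor regulatory proteins (TARPs), which carry AMPA-type glutamate receptors to the membrane and are named for their likeness to the calcium channel gamma subunit. Cacng7 (chromosome 7, 3332955 to 3368221, plus strand) had 3898 and 2550 counts in KO 5 and KO 6, against 3111 and 3699 in WT 1 and WT 4. The KO libraries enclosed the WT libraries, with 77.8 ± 18.9 CPM per kb in KO and 80.4 ± 12.2 in WT (SD, n = 2 each). Cacng4 had 3561 and 3122 counts in KO 5 and KO 6, against 3311 and 3614 in WT 1 and WT 4, and its level was 5.42 to 6.14 times that of Cacng8, the TARP next in level by exon length. By coding length that ratio was 12.3, and Cacng2 rather than Cacng8 came next. Cacng1, whose product is the gamma subunit of skeletal muscle channels, stood lowest of the 7 genes, at 2.98 CPM per kb. Its range over the libraries overlapped that of Cacng5, the gene just above it.

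Cytosolic beta subunits bind the pore of calcium channels and bring it to the surface, and Cacnb3 was the most abundant of the 4. Cacnb3 had 5190 and 4568 counts in KO 5 and KO 6, against 4731 and 4766 in WT 1 and WT 4, or 72.1 ± 2.59 CPM per kb in KO and 68.1 ± 2.43 in WT (SD, n = 2 each). Scaled to depth both KO values were above both WT values, with a log2 fold change of 0.08 (95% interval -0.17 to 0.33). Within a library Cacnb3 stood 3.67 to 4.09 times as high as Cacnb1, and the ranges of Cacnb3, Cacnb1, Cacnb4 and Cacnb2 did not overlap. Cacnb2, the main beta subunit of heart, had 84 and 77 counts in KO 5 and KO 6, against 102 and 104 in WT 1 and WT 4. The KO values were the lower ones, at a log2 fold change of -0.31 (95% interval -0.89 to 0.27). Of the alpha2delta subunits, extracellular proteins that raise channel density, Cacna2d1 was highest, above Cacna2d2 and Cacna2d3. Its level was 14.2 ± 0.928 CPM per kb in KO and 14.9 ± 1.67 in WT (SD, n = 2 each).

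The pore-forming alpha1 subunits were led by Cacna1h, a low-voltage-activated T-type channel. Cacna1h had 4888 and 4893 counts in KO 5 and KO 6, against 4858 and 4668 in WT 1 and WT 4, or 29.7 ± 1.63 CPM per kb in KO and 28.0 ± 0.0644 in WT (SD, n = 2 each). Both KO levels were above both WT levels, with a log2 fold change of 0.08 (95% interval -0.17 to 0.34). Its level was 3.82 to 3.93 times that of Cacna1g, another T-type channel, and 2.84 to 3.21 times that of Cacna1b, the N-type channel of presynaptic terminals. Cacna1c, an L-type channel that couples activity to transcription, had 2281 and 2210 counts in KO 5 and KO 6, against 2123 and 2024 in WT 1 and WT 4. The KO libraries were the higher ones, with a log2 fold change of 0.16 (95% interval -0.08 to 0.40, edgeR adjusted p 0.9999). Cacna1e, the R-type channel, had 2758 and 3000 counts in KO 5 and KO 6, against 2361 and 2870 in WT 1 and WT 4, with log2 ratios of 0.48 within table A and -0.10 within table B. Cacna1s and Cacna1f, known from skeletal muscle and retina, had at most 17 counts in any library and were not tested.

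HCN channels open on hyperpolarisation and pass a mixed cation current, and the embryonic cortex held mostly Hcn3. Hcn3 had 1118 and 832 counts in KO 5 and KO 6, against 918 and 1005 in WT 1 and WT 4, and 17.1% of its exon bases overlap Pklr on the opposite strand, whose reads cannot be told apart because it is not stated whether the counting used strand. Its level was 1.61 to 2.33 times that of Hcn4, the sinoatrial pacemaker form, over the 4 libraries. Hcn2 and Hcn4 overlapped between the genotypes, at 0.17 (SE 0.22) and 0.13 (SE 0.14). For Hcn2, Hcn3 and Hcn4 the fitted value took the other sign when 1 library was left out.

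Among the 28 pore-forming Kv genes, Kcnq3, a subunit of the M-current channel that holds neurons back from repeated firing, was among those of highest level. Kcnq3 had 2284 and 1852 counts in KO 5 and KO 6, against 1780 and 2287 in WT 1 and WT 4, or 8.31 ± 0.780 CPM per kb in KO and 7.97 ± 1.64 in WT (SD, n = 2 each). Scaled to depth both KO values lay between the WT values. Its log2 fold change was 0.06 (95% interval -0.32 to 0.45), with 0.19 within table A and -0.04 within table B.

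Kcna1, an axonal channel of low threshold, was higher in the KO without passing the test. Kcna1 (chromosome 6, 126640397 to 126646384, minus strand) had 142 and 121 counts in KO 5 and KO 6, against 76 and 103 in WT 1 and WT 4. Its KO libraries were both higher, at 7.78 ± 0.458 CPM in KO and 5.16 ± 1.25 CPM in WT (SD, n = 2 each). Its log2 fold change was 0.59 (95% interval -0.05 to 1.23), with 0.79 within table A and 0.41 within table B. The edgeR p was 0.0645 before adjustment and 0.9999 after it.

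Kcnh2, the ERG channel, and Kcna5, known from heart and vessels, had fitted values below 0. Kcnh2 had 475 and 318 counts in KO 5 and KO 6, against 472 and 519 in WT 1 and WT 4. KO 5 lay within the WT range and KO 6 below it, with a log2 fold change of -0.29 (SE 0.18). Kcna5 had 14 and 6 counts in KO 5 and KO 6, against 18 and 17 in WT 1 and WT 4, the KO values being lower. Its log2 fold change of -0.77 had an interval of -1.98 to 0.45, which is what so few counts allow. Among the silent Kv modifiers, which make no channel alone and join other Kv pores, Kcng1 was highest at 6.64 ± 1.34 CPM per kb in KO and 6.22 ± 0.929 in WT, followed by Kcnv1 at 3.06 to 3.21 CPM per kb in all 4 libraries. Kcnv1 had 250 and 228 counts in KO 5 and KO 6, against 255 and 251 in WT 1 and WT 4, with both KO values slightly lower.

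Kcnip2 had the smallest p of all channel genes. It encodes a calcium-binding protein that attaches to Kcnd pores and speeds the recovery of the A-type current, and it lies on chromosome 19, 45791839 to 45816061, minus strand. Kcnip2 had 490 and 504 counts in KO 5 and KO 6, against 388 and 393 in WT 1 and WT 4. The KO libraries were both above the WT libraries and each pair was close together, at 29.5 ± 2.19 CPM in KO and 22.5 ± 0.888 CPM in WT (SD, n = 2 each). The log2 fold change was 0.39 (95% interval 0.08 to 0.71), with 0.51 within table A and 0.28 within table B. The edgeR p was 0.0208 before adjustment and 0.9999 after adjustment over 16371 genes, so it did not pass. The related Kcnip3, which also acts as a transcriptional repressor, had 768 and 623 counts in KO 5 and KO 6, against 707 and 652 in WT 1 and WT 4, and overlapped. Kcnip1 had 596 and 511 counts in KO 5 and KO 6, against 428 and 570 in WT 1 and WT 4, and overlapped as well. Their Kcnd partners, Kcnd1, Kcnd2 and Kcnd3, had log2 fold changes of 0.07, -0.01 and 0.10. They were looked up after Kcnip2 had been seen.

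**Figure D4:**
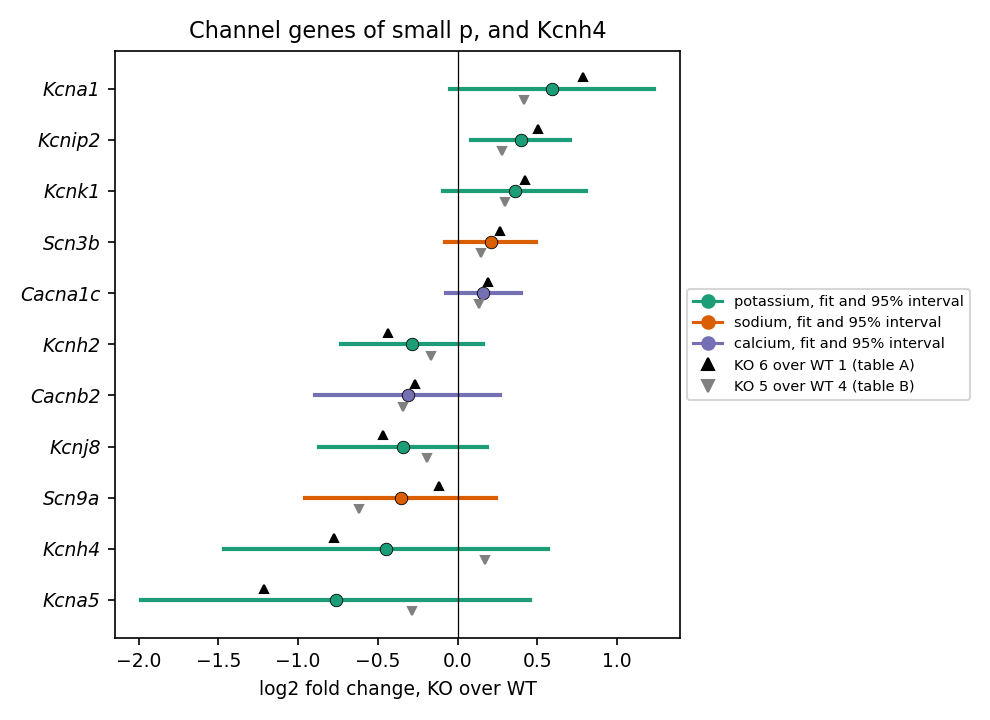
Log2 fold change of KO over WT (horizontal axis) with its 95% interval for 10 tested channel genes of small p and for Kcnh4, with triangles for the log2 ratio within each deposited table. The interval of Kcnip2 is the only one of these 11 that does not cross 0.

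Among the channels opened by intracellular calcium or sodium, the small-conductance Kcnn genes, whose channels contribute to the afterhyperpolarisation that follows a spike, were highest by exon length. Kcnn2, Kcnn3 and Kcnn1 had mean levels of 3.58, 3.51 and 3.13 CPM per kb, and their ranges overlapped. By coding length Kcnma1 stood above Kcnn1, at 8.46 against 8.19 CPM per kb of coding sequence. Kcnn1 had 274 and 172 counts in KO 5 and KO 6, against 278 and 266 in WT 1 and WT 4, with KO 6 alone below the WT values. Kcnma1, the large-conductance BK channel, had 648 and 781 counts in KO 5 and KO 6, against 628 in both WT 1 and WT 4. Its KO values were both higher once scaled to depth, though the log2 ratio was 0.44 within table A and 0.0039 within table B. The fitted log2 fold change was 0.24 (95% interval -0.13 to 0.60, edgeR adjusted p 0.9999). Kcnn4, the intermediate-conductance channel of blood cells, had 2 to 13 counts.

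Inward rectifiers pass potassium best near rest, and Kcnj11, the pore of the neuronal ATP-sensitive channel, led them. Kcnj11 had 958 and 601 counts in KO 5 and KO 6, against 748 and 851 in WT 1 and WT 4. The KO libraries enclosed the WT libraries, with 12.5 ± 3.39 CPM per kb in KO and 12.5 ± 1.52 in WT (SD, n = 2 each). Its level was 2.28 to 3.22 times that of Kcnj10, the channel of astrocytes and oligodendrocytes, and 1.77 times by coding length. Kcnj10 had 544 and 387 counts in KO 5 and KO 6, against 412 and 389 in WT 1 and WT 4. Scaled to depth both KO values were higher, KO 6 by little, with a log2 fold change of 0.25 (95% interval -0.13 to 0.64), with 0.04 within table A and 0.44 within table B. Beside it, 5 astrocyte marker genes summed to 77.0 and 89.4 CPM in KO 5 and KO 6, against 86.8 and 70.9 CPM in WT 1 and WT 4, so the sums overlapped. The markers were split: of 4 tested, 2 had fitted values above 0 and 2 below. Gfap and Slc1a2 had both KO values above both WT values, as Kcnj10 had, while Aldh1l1 and Aqp4 were highest in WT 1. The part of astrocyte number in the Kcnj10 value was not tested. Kcnj3, a G-protein-gated channel, had 367 and 354 counts in KO 5 and KO 6, against 279 and 397 in WT 1 and WT 4. Another gene, Gm26794, covers 31.1% of its exon bases on the opposite strand.

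Kcnj8, which pairs with the regulatory subunit Abcc9 in pericytes and vascular smooth muscle, had fewer counts in the KO. It had 124 and 115 counts in KO 5 and KO 6, against 175 and 138 in WT 1 and WT 4, both KO values being lower. The level was 7.08 ± 0.00687 CPM in KO and 8.98 ± 1.23 CPM in WT (SD, n = 2 each), or -0.34 as a log2 fold change (95% interval -0.87 to 0.19, edgeR adjusted p 0.9999). Abcc9 had 228 and 244 counts in KO 5 and KO 6, against 327 and 279 in WT 1 and WT 4, a log2 fold change of -0.31 (SE 0.17). All 5 pericyte markers other than Kcnj8, Abcc9 among them, had fitted values below 0, and none was at 0 counts. They summed to 130.3 and 166 CPM in KO 5 and KO 6, against 230.2 and 139 CPM in WT 1 and WT 4, with WT 1 highest and the other libraries overlapping. The part of pericyte content in the Kcnj8 value was not tested.

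The two-pore-domain channels carry the background leak of potassium, and the mechanosensitive Kcnk2 and its relative Kcnk10 stood highest. Kcnk2 had 801 and 819 counts in KO 5 and KO 6, against 960 and 861 in WT 1 and WT 4. Scaled to depth its KO values were both lower, though KO 6 lay only just below WT 4. The log2 fold change was -0.12 (95% interval -0.39 to 0.15). A430027H14Rik covers 12.2% of the exon bases of Kcnk2 on the opposite strand. Kcnk1, a weakly rectifying leak channel, had 229 and 201 counts in KO 5 and KO 6, against 164 and 181 in WT 1 and WT 4. Both KO libraries were higher, at 12.7 ± 0.483 CPM in KO and 9.93 ± 0.994 CPM in WT (SD, n = 2 each). Its log2 fold change was 0.36 (95% interval -0.09 to 0.81), with 0.42 within table A, 0.30 within table B and an edgeR adjusted p of 0.9999. Kcnk10 had 986 and 1073 counts in KO 5 and KO 6, against 1087 and 1098 in WT 1 and WT 4, and its depth-scaled values overlapped.

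Across the whole set, both KO libraries stood above both WT libraries in 20 of the 105 genes, where 11.5% of all genes did, and below both in 12, where 11.9% of all genes did. Among the 73 genes with a mean of at least 100 counts the numbers were 15 and 6, where 10.2% and 9.75% of all genes of that depth stood above and below. The 20 genes came from each class: 12 of potassium, 2 of sodium, 5 of calcium and 1 of HCN channels. The 12 genes below were 9 of potassium, 1 of sodium and 2 of calcium channels. These counts are a description of 4 libraries, with no test of the list.

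The precision of the comparison differed between the classes, as did the counts of their members. The median of the mean counts was 191 over the 70 tested potassium channel genes, 402 over 9 of sodium, 1107 over 22 of calcium and 454 over 4 of HCN channels. The 95% interval of KO over WT lay within a 2-fold difference either way for 79 of the 105 genes (75.2%). The share was 74.1% over all genes tested and 81.6% over the protein-coding ones. By class the interval lay within 2-fold for 45 of 70 potassium, 9 of 9 sodium, 22 of 22 calcium and 3 of 4 HCN genes. Within 1.5-fold lay 25 of 70 potassium, 5 of 9 sodium, 17 of 22 calcium and 2 of 4 HCN genes, 49 in all (46.7%). That share was 54.1% over all genes and 62.6% over protein-coding genes. Of the 73 genes with a mean of at least 100 counts, 69 had an interval within 2-fold. The 16 genes that were not tested had 0 to 17 counts per library, a depth at which only many-fold differences could be detected.

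Some channel genes, of the potassium class and of others, differed more between libraries of 1 genotype than between the genotypes. The WT libraries were at least 2-fold apart for 6 of the 105 genes (5.71%), where 6.10% of all genes were. All 6 encode potassium channel subunits, the class that made up 70 of the 105 genes and had the lowest median of mean counts. Kcnk6, Kcnh6, Kcnh4, Kcnf1 and Kcnj5 were higher in WT 1, and Kcnq1 was higher in WT 4. Of these, Kcnk6, Kcnh6, Kcnj5 and Kcnq1 had at most 34 counts in any library. The KO libraries were 2-fold apart for 2 genes, where 4.01% of all genes were, namely Kcne4 and Kcnk4, both higher in KO 6 and both with at most 14 counts. Apart from Kcnf1, these genes were named after their values had been seen.

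Kcnh4, a Kv gene of the ELK family, was the 1 channel gene whose call depended on a single library. It had 168 and 208 counts in KO 5 and KO 6, against 391 and 145 in WT 1 and WT 4, so that WT 1 was high and WT 4 lowest of all. Its level was 11.2 ± 2.28 CPM in KO and 15.3 ± 9.53 CPM in WT (SD, n = 2 each), with a log2 fold change of -0.45 and an edgeR adjusted p of 0.9999. Without WT 4 the value was -0.97 with an edgeR adjusted p of 0.0271, and without WT 1 it was 0.40 with 0.9999. Within table A its log2 ratio was -0.77 and within table B 0.17. Leaving out KO 5, KO 6 or WT 1 called 0 channel genes, where 0.0291%, 0.0466% and 0.259% of all genes were called, and leaving out WT 4 called Kcnh4, where 1.82% of all genes were called. WT 1 was also the library with the highest ganglionic eminence and meningeal sums given above, and their part in the Kcnh4 value was not tested. Kcnf1, a silent modifier, followed the same order in WT, with 50 and 87 counts in KO 5 and KO 6, against 123 and 48 in WT 1 and WT 4.

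The libraries of table A were higher in both genotypes, by at least 1.25-fold, for 11 channel genes, where 6.90% of all genes were. These were Kcnab3, Kcnc4, Kcne2, Kcnf1, Kcnh1, Kcnh4, Kcnip4, Kcnj2, Kcnj5, Kcnt1 and Kcnt2, all of potassium channels. Kcnt1, a sodium-activated channel, had 288 and 381 counts in KO 5 and KO 6, against 491 and 275 in WT 1 and WT 4. Kcnj2, an inward rectifier, had 188 and 322 counts in KO 5 and KO 6, against 249 and 181 in WT 1 and WT 4. In both genes the higher KO and the higher WT library came from table A, and the genotypes overlapped. The opposite order was found for 2 genes, Kcnj14 and Kcnk12, where 3.17% of all genes showed it. Over the 105 genes the log2 ratio of WT 1 to WT 4 and that of KO 6 to KO 5 had a Spearman rho of 0.23 and a Pearson r of 0.16, given as a description across genes, and over all genes tested the Spearman rho was 0.21. What the libraries of a table share beyond their file is not given.

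**Figure D5:**
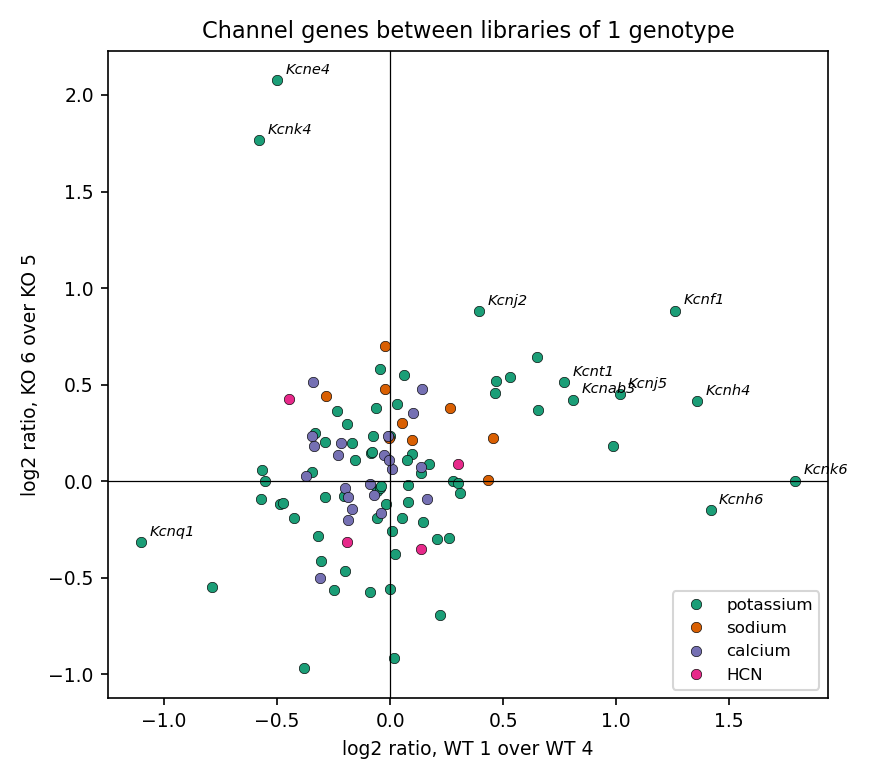
Log2 ratio of KO 6 to KO 5 (vertical axis) against the log2 ratio of WT 1 to WT 4 (horizontal axis) for the 105 channel genes tested, coloured by class. Points at the upper right are higher in the table A library of both genotypes. The 8 genes at least 2-fold apart in either genotype are all of potassium channels, and all but Kcnf1 and Kcnh4 had at most 34 counts in any library. Over all genes 6.10% were that far apart in WT and 4.01% in KO.

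Kcne2, known from the choroid plexus, where it sits in the apical membrane, was close to the floor of detection. It had 12 and 17 counts in KO 5 and KO 6, against 13 and 8 in WT 1 and WT 4, and overlapped. The 4 listed choroid plexus markers summed to 5.14 and 17.1 CPM in KO 5 and KO 6, against 14.6 and 3.41 CPM in WT 1 and WT 4. The sum had the same order of libraries within each genotype, but Ttr made up most of it in KO 6 and WT 1. Ttr had 17 and 222 counts in KO 5 and KO 6, against 178 and 8 in WT 1 and WT 4. Clic6 had that order too, with 10 and 16 counts in KO 5 and KO 6, against 32 and 10 in WT 1 and WT 4. Otx2 had the opposite order in KO, with 61 and 38 counts in KO 5 and KO 6, against 43 and 35 in WT 1 and WT 4. The part of these markers in the Kcne2 value was not tested. Kcnj16, a partner of Kcnj10 in glia, had 6 and 8 counts in KO 5 and KO 6, against 3 and 8 in WT 1 and WT 4, and was not tested. Kcnj6, a G-protein-gated channel of adult midbrain neurons, had 2 and 5 counts in KO 5 and KO 6, against 3 and 2 in WT 1 and WT 4. A further 6 channel genes were listed in 1 table only, with 1 to 12 counts each, and did not enter the set. Of these Scn10a had the widest gap, with 3 counts in KO 6 and 12 in WT 1.

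Genes whose products bind, place or restrain these channels were set beside the channel genes. Of 60 such genes, 53 were tested, with 33 fitted values above 0, 20 below and 0 called by edgeR at an adjusted p under 0.05 (1 at an unadjusted p under 0.05). Their median log2 fold change was 0.04, with 0.11 within table A and -0.0025 within table B, beside -0.0028 over all genes. The smallest p belonged to Rem2, a small GTPase that restrains calcium channels through their beta subunits. Rem2 had 135 and 113 counts in KO 5 and KO 6, against 210 and 167 in WT 1 and WT 4, both KO values being lower. This is a log2 fold change of -0.56 (SE 0.21), at an edgeR p of 0.0365 before and 0.9999 after adjustment. Its relative Rrad was at 9 and 6 counts in KO 5 and KO 6, against 15 and 18 in WT 1 and WT 4, while another member of that family, Gem, was higher, at 156 and 103 counts in KO 5 and KO 6, against 96 and 89 in WT 1 and WT 4. Neither passed the test. Rims1, an active-zone protein that binds calcium channels, had 641 and 557 counts in KO 5 and KO 6, against 514 and 523 in WT 1 and WT 4, at a log2 fold change of 0.25 (SE 0.12) and an edgeR adjusted p of 0.9999. Adam11, a metalloprotease-like protein that places Kv channels in cerebellar terminals, had 1622 and 1728 counts in KO 5 and KO 6, against 1617 and 1238 in WT 1 and WT 4, at 0.28 (SE 0.14). Rest, the repressor known to hold many channel genes silent outside neurons, had 340 and 306 counts in KO 5 and KO 6, against 292 and 308 in WT 1 and WT 4, or 19.4 and 18.9 CPM in KO 5 and KO 6, against 16.4 and 18.1 CPM in WT 1 and WT 4. Scaled to depth both KO values were above both WT values, at a log2 fold change of 0.15 (SE 0.14) and an edgeR adjusted p of 0.9999. It was looked up outside the rule for named genes.

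The authors' deposited tables mark a gene as significant from 1 library against 1 library. Every gene marked in the authors' deposited tables had an adjusted p under 0.05 and a log2 fold change of at least 1 in size. An adjusted p under 0.05 alone was given in the authors' deposited tables to 40 channel genes in table A, where 22.6% of genes had one, and to 16 in table B, where 13.2% did. In the authors' deposited table A 2 channel genes were marked, Kcng3 and Kcnk6, where 4.75% of genes were. In the authors' deposited table B 2 were marked, Kcne4 and Kcnn4, where 2.00% of genes were, and 0 were marked in both. All 4 had at most 34 counts in any library. Kcng3 had 5 and 0 counts in KO 5 and KO 6, against 8 and 12 in WT 1 and WT 4, and a count of 0 in KO 6 allows up to 0.184 CPM. Kcnk6 had 14 and 13 counts in KO 5 and KO 6, against 34 and 8 in WT 1 and WT 4, so that the KO values lay between the WT values.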

How the data were processed

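RNA from E16 cortex was sequenced in 4 libraries. The authors deposited 2 tables of raw counts per gene, each with 1 KO and 1 WT library, made with Bowtie2 2.2.3, TopHat2 2.0.12 and HTSeq 0.6.0 per the submitters' processing notes. These name the build mm9, while the deposited gene positions are those of GRCm38. The deposited CPM values are counts scaled to the library total, the deposited fold divides KO by WT CPM as a ratio, and the authors also give it on the log2 scale. The authors' deposited p-values compare 1 library with 1 library.

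Counts of the 20385 genes in both tables were tested with edgeR 4.0.16 (R 4.3.3) after filterByExpr, with TMM scaling (factors 0.994 to 1.012), a two-sided quasi-likelihood test and Benjamini-Hochberg adjustment over 16371 genes at 0.05. Intervals are at 95% and use the SE of that fit. Log2 ratios within a table use a prior count of 2. Exon lengths came from GENCODE mouse release 21, and promoter windows from RefSeq, of which none on chromosome 18 was printed. The limit for a count of 0 is 3 counts and covers counting error only, because the reads carry no molecular identifiers. DESeq2 1.42.0 and limma 3.58.1 served as alternatives, and the fit was tested on simulated counts. There 68 of 100 genes changed 2-fold and 93 of 100 changed 4-fold were called, with 6 false calls. The simulated spread followed the trend over genes rather than that of each gene, and genes of low level were not changed. These shares therefore do not show how often such differences would be called in the 4 libraries.

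The genes named are the 3 of highest level in each subclass, the 6 of smallest p in each direction, any called gene, any with a log2 fold change of at least 1 in size, and 16 chosen names whatever their values, of which Kcnj13 was not listed in both tables. Any other gene named was chosen after its values were seen. Some genes that the rule names are not reported here. Of the partner genes, the 3 of smallest p in each direction are named. The members and all lists were chosen with earlier results of these data known.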

Additional observations from a re-analysis of the deposited data

How the results depend on the processing

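KO and WT share no replicate numbers (5 and 6 against 1 and 4), so libraries were paired only by deposited table, as the block given here. The count of 0 called channel genes held under 11 of 12 alternatives and was 1, Kcnh4, without WT 4, and it ran from 0 to 1 when each library was left out. Over all genes, where 2 were called, DESeq2 called 8, the deposited table as a block 29 and protein-coding genes only 0, and leaving out a library gave 5 to 312. In a fit that leaves out a library, the lone library is assumed to vary like the others.

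The potassium median of 0.02 was 0.013 with library totals only and 0.043 with no low-count filter, and 0.024 to 0.038 when a library was left out. The sodium median of -0.07 ran from -0.13 to 0.10. Of 48 genes with a fitted value, 20 kept the sign of their log2 fold change under every alternative, Kcnip2, Kcna1, Kcnk1 and Scn3b among them. Their size still moved when a library was left out: Kcnip2 ran 0.32 to 0.47, Kcna1 0.36 to 0.87, Kcnk1 0.26 to 0.47, Scn3b 0.10 to 0.31, Kcnma1 0.039 to 0.42, Kcnj10 0.053 to 0.44, Kcnh2 -0.54 to -0.069, Kcnj8 -0.47 to -0.19 and Scn9a -0.61 to -0.13. Values near 0 changed sign for Scn8a, to 0.0073 with limma-voom, 0.0075 with the table as a block and 0.0003 with protein-coding genes only, and for Kcnj11, to 0.0016 with protein-coding genes only. Leaving out a library changed the sign for 28. The log2 fold change ran for Cacna1b -0.067 to 0.064, for Cacna2d1 -0.18 to 0.051, for Cacna2d2 -0.052 to 0.30, for Cacna2d3 -0.071 to 0.44, for Cacnb1 -0.094 to 0.073, for Cacnb4 -0.089 to 0.14, for Cacng4 -0.10 to 0.093 and for Cacng7 -0.32 to 0.19. It ran for Hcn2 -0.021 to 0.34, for Hcn3 -0.11 to 0.21, for Hcn4 -0.011 to 0.28, for Kcnf1 -0.76 to 0.54, for Kcng1 -0.13 to 0.29, for Kcnh4 -0.97 to 0.40, for Kcnip1 -0.030 to 0.45 and for Kcnip3 -0.023 to 0.17. It ran for Kcnj11 -0.31 to 0.25, for Kcnj3 -0.12 to 0.45, for Kcnk10 -0.15 to 0.075, for Kcnn1 -0.56 to 0.0050, for Kcnn2 -0.014 to 0.31, for Kcnn3 -0.045 to 0.066 and for Kcnq3 -0.13 to 0.29. It ran for Scn1a -0.35 to 0.027, for Scn2a -0.098 to 0.34, for Scn2b -0.54 to 0.17, for Scn3a -0.21 to 0.013 and for Scn8a -0.21 to 0.24. The cause was not tested. The order of genes by level rests on exon length: by coding length, 27 of 108 neighbouring pairs within a subclass stood in another order, an alternative chosen after the data were seen. Depth limits the 16 genes with at most 17 counts.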
